A study of Mus musculus with 25 samples.

Results

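The question here was what deleting Rb adds in mouse liver that already lacks p53, 24 h after the carcinogen diethylnitrosamine (DEN). The comparison used 10 of the 25 arrays of the series, 5 from livers with both genes deleted (DKO) and 5 from livers with p53 alone deleted (p53KO), chosen by their labels and by no measured value. Expression was measured in frozen liver of mice whose strain is given as FVB;129 and which carried Cre recombinase under the albumin promoter with loxP sites in p53, in Rb or in both. Albumin-driven Cre acts in hepatocytes. Cells of the liver without active Cre keep both genes in either group, and bulk tissue mixes all of them. How complete the deletion was, and in which cells, was not measured here. Both groups received 1 intraperitoneal dose of DEN, 20 mg/kg at 14 days of age. Beside them the report uses 5 DEN arrays without a deletion (WT) and 4 DEN arrays with Rb alone deleted (RbKO) for the same deletion in the presence of p53, and 3 untreated WT and 3 untreated DKO arrays for context. The labels give no treatment for the untreated animals, whereas the series text speaks of saline. Whether arrays of a group came from separate animals is not stated, so each p-value reflects the spread among these arrays, which may be technical. With 5 arrays a group the precision is limited.

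The retinoblastoma protein pRB binds E2F transcription factors and holds back the genes that take a cell into S phase, and p53 arrests or kills cells with damaged DNA. DEN becomes a DNA-alkylating agent once cytochrome P450 enzymes of the hepatocyte have oxidised it. The constitutive androstane receptor CAR, encoded by Nr1i3, is a nuclear receptor of the hepatocyte that drives Cyp2b10 and other genes of foreign-compound metabolism.

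The numbers in the array names form 3 runs, 1 of them with a prefix, which are used here as 3 array sets. What the sets stand for is not given. Set 1 holds 3 DKO and 2 p53KO arrays, set 3 holds 2 DKO and 3 p53KO arrays, and set 2 holds neither group, so the genotype difference was fitted with the set as a term and is also given within sets 1 and 3. All values are log2 signals, differences are DKO minus p53KO on the log2 scale with the moderated standard error (SE) of limma, and a gene is called where the adjusted p of limma (Benjamini-Hochberg over 15951 genes) is under 0.05. Pairs of the 10 arrays correlated at 0.964 to 0.989, and DKO replicates 4 and 5, both of set 3, had the lowest median correlation with the other arrays (0.969 for each). Their first principal component, with 26.7% of the variance, separated the sets. The sexes are not labelled: Xist, an RNA of female cells, was at 9.70 or above in 2 of 5 DKO and 2 of 5 p53KO arrays and at 3.83 or below in the others. The 10 hepatocyte markers had a mean level of 11.3 to 11.5 in DKO and 11.4 to 11.5 in p53KO arrays, with none called.

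Rb1 itself, the deleted gene, read 5.18, 5.57, 5.51, 5.82 and 5.35 in the DKO arrays and 5.56, 5.76, 5.93, 5.91 and 5.68 in the p53KO arrays. The groups overlapped, and the difference of -0.25 (SE 0.17, adjusted p = 0.50 with limma) was not called. Where the probes lie relative to the deleted part is not given in the sources used here, and the cells without Cre keep the gene, so this value does not check the labels.

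Between DKO and p53KO livers 298 of 15951 genes (1.87%) were called, of which 57 were higher (0.357%) and 241 lower (1.51%) in DKO. Most of these differences were small, with a median size of 0.57, and 22 exceeded 1 log2 unit, 12 of them higher and 10 lower. The 6 largest falls were in 3 Cyp2b genes, the phospholipase-like gene Gdpd3, Hddc3 and 1600014C10Rik, and the largest rises included Ifit3, TRIM genes known to respond to interferon and the transporter Slco1a1. All 298 had the same sign in set 1 and in set 3, and a call on the mean of the set differences favours such genes. Over all genes the differences of the sets were almost unrelated, with a Pearson correlation of 0.00492 over 15951 genes, which are not independent since genes of a set share its arrays. In 151 of the 298 genes the arrays of the groups did not overlap, against 417 genes (2.61%) among all tested.

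The count depends on which arrays are in the fit. It was 142 without DKO replicate 5, 172 without p53KO replicate 3 and 197 without p53KO replicate 1, and 71 of the 298 genes (23.8%) were called without each of the 10 arrays in turn, 18 higher and 53 lower. Set 1 alone called 777 genes (4.87%) and set 3 alone 130 (0.815%). Among the 298, 135 were called in the fit of set 1 alone and 42 in that of set 3 alone. Of the genes called in both of these fits, 20 had the same sign in each and 10 had opposite signs. A test of the set difference itself called 493 genes (3.09%), 8 of which are among the 298. The median difference over all genes was -0.04. With each array centred on its median, 384 genes were called and the share of lower calls went from 80.9% to 87.2%.

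**Figure D1:**
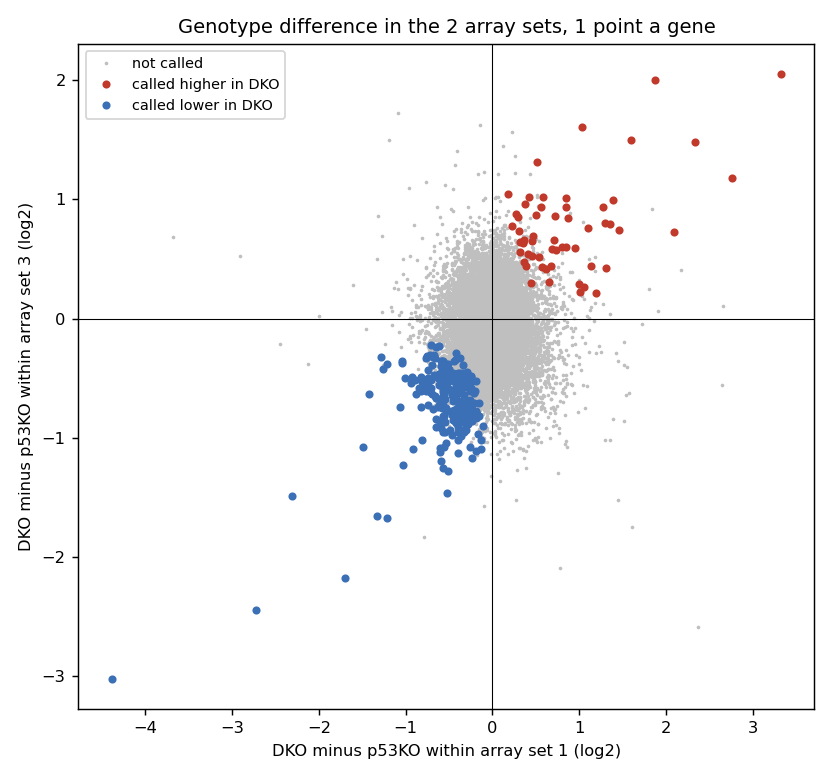
Difference DKO minus p53KO within array set 1 (x axis, log2) against the same within array set 3 (y axis, log2), 1 point for each of 15951 genes. The 57 genes called higher lie in the upper right and the 241 called lower in the lower left, while the cloud of all genes has no slope (Pearson 0.00492).

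No gene for a pocket protein, E2F factor, cyclin or CDK inhibitor was called between DKO and p53KO livers. There were 28 tested, their differences ran from -0.26 to 0.39, and their median was 0.0014 against -0.04 over all genes. Cyclin E2 (Ccne2), which drives entry into S phase, stood at 6.92 ± 0.26 in DKO and 6.88 ± 0.17 in p53KO (SD, n = 5 each), a difference of 0.02 (SE 0.21). Cyclin A2 (Ccna2), of S phase and mitosis, stood at 7.54 ± 0.21 and 7.37 ± 0.19, and the pocket protein Rbl1, itself an E2F target, at 6.12 ± 0.37 and 6.02 ± 0.33. Their array values overlapped and none had an adjusted p under 0.79 with limma. The sets differed, with a list median of 0.10 in set 1 and -0.10 in set 3. Rbl1 differed by 0.57 in set 1 (adjusted p = 0.0354 with limma on that set alone) and by -0.30 in set 3. E2f8, a repressive E2F factor, differed by 0.60 in set 1 and -0.52 in set 3, and that set difference was called (adjusted p = 0.0192 with limma).

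Of 31 genes of DNA replication and nucleotide synthesis, 1 rose (0.357% of all genes did) and 30 were not called, with a median of 0.01. The riser was Pola1, the catalytic subunit of DNA polymerase alpha, which starts each new strand. It read 6.78, 6.78, 6.92, 7.43 and 7.09 in DKO and 6.11, 5.64, 6.61, 6.55 and 6.84 in p53KO, a difference of 0.77 (SE 0.15, adjusted p = 0.00727 with limma). In p53KO the set 3 arrays were high and replicate 5 overlapped the lower DKO arrays, and the difference was 0.95 in set 1 and 0.59 in set 3. Gins1, of the replicative helicase, differed by 0.39 and Gins2 of the same complex by -0.55, neither of them called.

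The promoter of Pola1 is shown because it holds letters of an E2F site. It is taken from RefSeq on build GRCm38.p6 and covers the 250 bases before the annotated start (chrX:93632156-93632405, minus strand), 5′ to 3′, with the match in capitals.
Pola1: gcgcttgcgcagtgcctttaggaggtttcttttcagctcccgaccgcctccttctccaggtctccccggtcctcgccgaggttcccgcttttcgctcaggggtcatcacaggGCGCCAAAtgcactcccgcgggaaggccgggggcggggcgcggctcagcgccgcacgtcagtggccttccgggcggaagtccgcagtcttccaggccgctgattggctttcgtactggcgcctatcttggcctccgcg
The letters searched were TTTGGCGC and TTTCCCGC on both strands, and 315 of 12588 tested genes with a promoter in the table (2.50%) hold one. Among the genes called higher 5 of 39 with a promoter did (12.8%), namely Pola1, Cdca7, Cntln, D17H6S56E-5 and Rps3a1. Among those called lower it was 5 of 198 (2.53%). A match of letters is a description of the sequence and was not tested as a binding site.

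Mitosis and cytokinesis genes gave no call among 29, with 25 above 0 and a median of 0.17. The sets disagreed, with a median of 0.49 in set 1 and -0.15 in set 3. Without p53KO replicate 2, an array of set 1, the median was 0.03. Centromere protein Cenpf differed by 0.41, kinetochore protein Knl1 by 0.39 and the kinase Aurka by -0.35, each with an adjusted p of 0.31 or more with limma. The list sat at 6.62 to 6.96 in DKO and 6.20 to 6.92 in p53KO arrays, so the lowest p53KO array lay below all DKO arrays and the rest overlapped. DNA repair genes gave 0 calls among 20 (median 0.06).

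p53 is deleted in both groups, and its target genes gave 0 calls among 25, with a median of -0.05. The lowest p was for Xpc, a sensor of damaged DNA in nucleotide excision repair, at 4.58 ± 0.19 in DKO and 4.99 ± 0.17 in p53KO (SD, n = 5 each), a difference of -0.41 (adjusted p = 0.057 with limma). The kinase gene Plk2 differed by -0.51 and the death receptor Fas by -0.34, neither called.

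Of 27 genes of foreign-compound metabolism 5 fell in DKO (1.51% of all genes did), none rose and 22 were not called. The list was chosen with earlier results of these data known, so its share beside that of all genes is a description and was not tested. Of the 27, 6 lay above 0 and the median was -0.24, with -0.30 in set 1 and -0.23 in set 3. The 5 were the receptor gene Nr1i3 and the cytochrome P450 genes Cyp2b10, Cyp2b9, Cyp2b13 and Cyp2c55. The count ran from 2 to 3 without p53KO replicate 1, 2, 3 or 5 or without DKO replicate 1, 3 or 5, since Cyp2b9, Cyp2b13 or Cyp2c55 then missed the threshold.

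Nr1i3 encodes CAR. It read 6.86, 6.73, 6.48, 6.46 and 7.10 in DKO and 7.47, 7.98, 7.97, 7.87 and 8.19 in p53KO. Every DKO array was below every p53KO array, and the difference was -1.13 (SE 0.22, adjusted p = 0.00830 with limma), 2.19-fold, with -1.03 in set 1 and -1.23 in set 3. It stood at 8.64 ± 0.38 in untreated WT, 7.66 ± 0.17 in untreated DKO (SD, n = 3 each) and 8.14 ± 0.76 in DEN WT (SD, n = 5), so the p53KO arrays lie within the range of DEN WT (7.45 to 9.41) and the DKO arrays below it.

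Cyp2b10, the standard CAR target, read 4.82, 5.03, 4.18, 4.83 and 4.73 in DKO and 6.80, 7.17, 6.04, 6.27 and 6.48 in p53KO. The groups did not overlap, and the difference of -1.90 (SE 0.24, adjusted p = 0.000102 with limma) was 3.72-fold. DEN WT arrays spanned 3.92 to 6.56 and untreated WT arrays 4.98 to 5.89. All DKO arrays lay within the DEN WT range. So did the p53KO arrays at 6.04, 6.27 and 6.48, while those at 6.80 and 7.17 lay above it. For Cyp2c55 the DKO arrays (6.71 to 7.09) lay within the DEN WT range (5.27 to 7.48). Its p53KO arrays (7.49 to 7.76) began just above that range. The difference was -0.74 (SE 0.17, adjusted p = 0.0207 with limma).

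Cyp2b9 and Cyp2b13 are female-biased P450 genes of adult liver. Cyp2b9 read 3.80, 9.33, 4.00, 9.11 and 5.32 in DKO and 10.03, 10.16, 10.17, 10.16 and 10.37 in p53KO. The p53KO arrays lay close together, whereas the DKO arrays split into 3 low and 2 near the p53KO level, which gives the mean difference of -3.70 its large SE of 0.96 (adjusted p = 0.0404 with limma). Cyp2b13 had its lowest DKO values on the same 3 arrays, at 3.54, 6.74, 2.73, 5.50 and 3.78 against 6.95 to 7.21 in p53KO, a difference of -2.59 (SE 0.63, adjusted p = 0.0296 with limma). Over all 25 arrays Cyp2b9 was under 6 log2 units on 5, the 3 DKO arrays, 1 DEN WT and 1 DEN RbKO array of set 2. Xist was high in DKO replicates 3 and 5, both low in Cyp2b9, and in 2 p53KO arrays. It was low in DKO replicates 1, 2 and 4 and in the DEN WT and DEN RbKO arrays concerned. The part of sex in this split was not tested. Leaving out DKO replicate 5 gave an adjusted p of 0.180 for Cyp2b9 and 0.135 for Cyp2b13. Leaving out DKO replicate 1 or 3 or p53KO replicate 1, 2, 3 or 5 also ended both calls, and leaving out p53KO replicate 4 that of Cyp2b9. Cyp2b genes are close copies of each other, and signal may be shared between their probes.

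**Figure D2:**
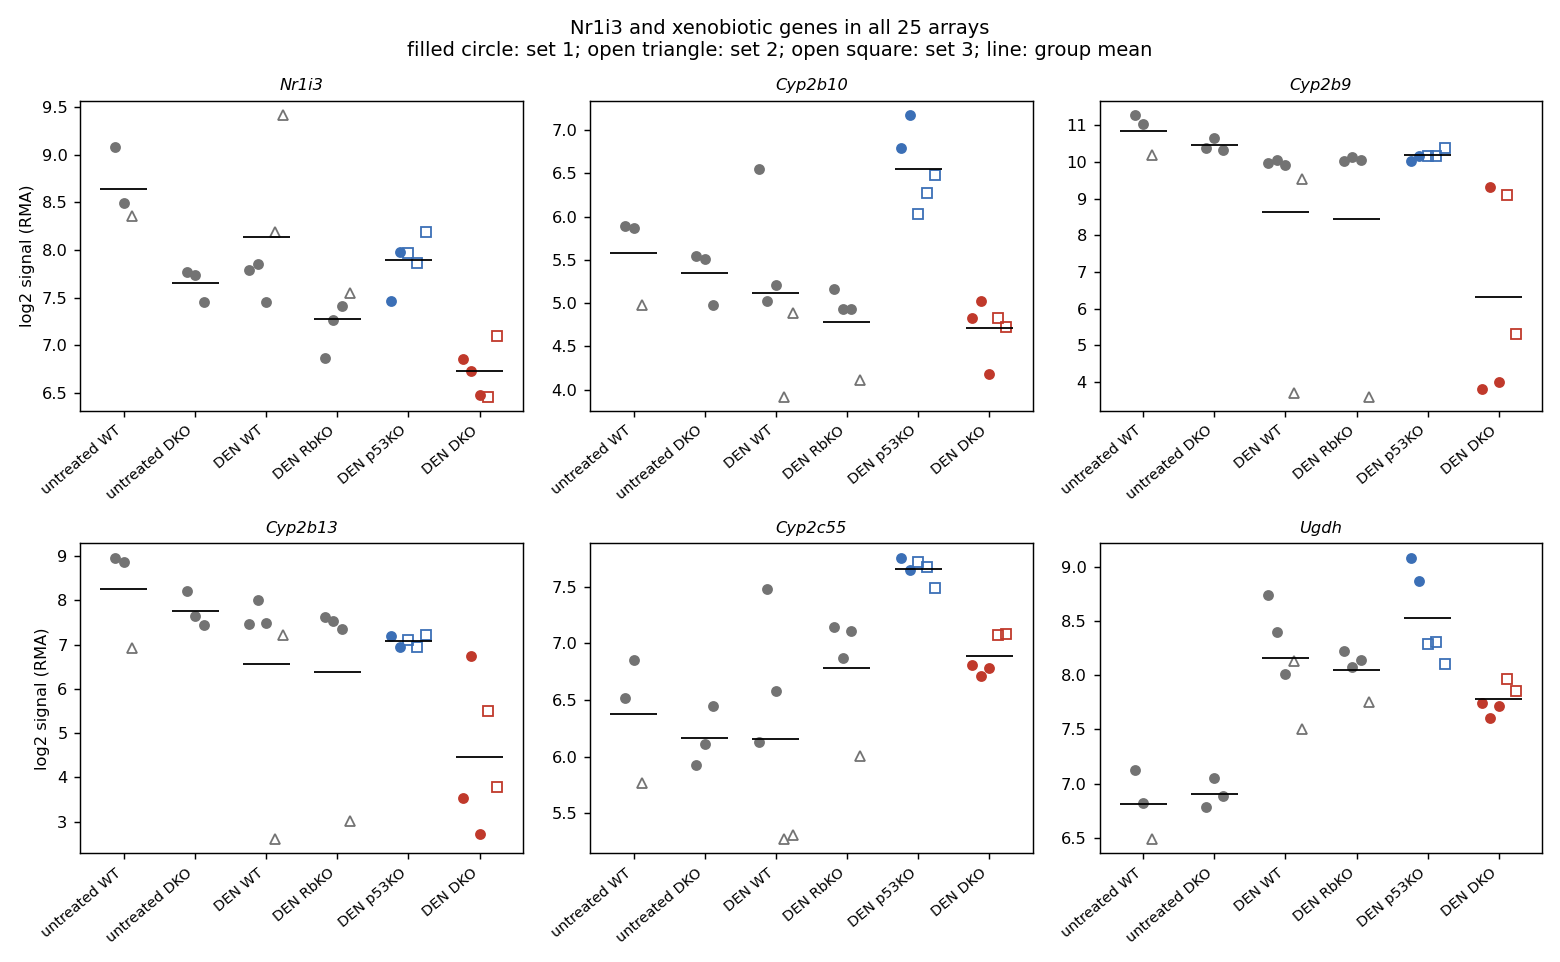
Log2 RMA signal of Nr1i3, Cyp2b10, Cyp2b9, Cyp2b13, Cyp2c55 and Ugdh on all 25 arrays (y axis) by group (x axis), with the array set as the marker and the group mean as a line. All 5 DEN DKO arrays lie below all 5 DEN p53KO arrays in each panel, and in Cyp2b9 the DEN DKO arrays run from 3.80 to 9.33.

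The other Nrf2 and conjugation genes moved less. Of 21 Nrf2 targets 1 fell (1.51% of all genes did), Ugdh, which makes UDP-glucuronic acid for glucuronidation. It read 7.74, 7.60, 7.72, 7.96 and 7.86 in DKO and 9.08, 8.87, 8.28, 8.30 and 8.10 in p53KO, a difference of -0.81 (SE 0.16, adjusted p = 0.00812 with limma). The gap was -1.29 in set 1 and -0.32 in set 3, and the set difference was itself called (adjusted p = 0.0227 with limma). Untreated arrays lay lower, at 6.49 to 7.13 in WT.

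Among the remaining large falls, Gdpd3, a lysophospholipase D, read 5.82, 5.94, 3.47, 3.75 and 3.93 in DKO and 7.31, 6.25, 5.20, 6.30 and 6.55 in p53KO. DKO replicates 1 and 2 overlap the lowest p53KO array, and the difference was -1.94 (SE 0.35, adjusted p = 0.00468 with limma). Untreated DKO arrays were at 3.44 to 3.78 and untreated WT arrays at 6.23 to 7.63. Hddc3, a hydrolase of the HD-domain family, read 4.92, 4.39, 5.56, 5.08 and 4.78 against 5.92, 6.66, 6.60, 6.70 and 6.46, with no overlap and a difference of -1.50 (SE 0.20, adjusted p = 0.000197 with limma). The gene 1600014C10Rik read 7.07, 6.98, 7.04, 6.25 and 6.99 against 8.18, 8.32, 8.27, 8.14 and 8.47, a difference of -1.45 (SE 0.26, adjusted p = 0.00488 with limma). DKO replicate 4 was its lowest array, and the other DKO arrays lay close together.

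The next falls were Commd6 at -1.29, Gipc2 at -1.03, Tm4sf4 at -1.005, Capsl at -0.996 and Parl at -0.92. Tm4sf4, a membrane protein of the tetraspan group, was at 8.76 to 9.04 in DKO and 9.77 to 10.18 in p53KO (adjusted p = 0.000102 with limma). Parl, the rhomboid protease of the inner mitochondrial membrane, was at 8.02 to 8.32 and 8.94 to 9.45. In both genes every DKO array lay below every p53KO array. The call of Gipc2 ended without p53KO replicate 1 or 2 (adjusted p up to 0.0672), and that of Capsl without p53KO replicate 2, 3 or 4 or DKO replicate 1, 4 or 5 (up to 0.161).

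**Figure D3:**
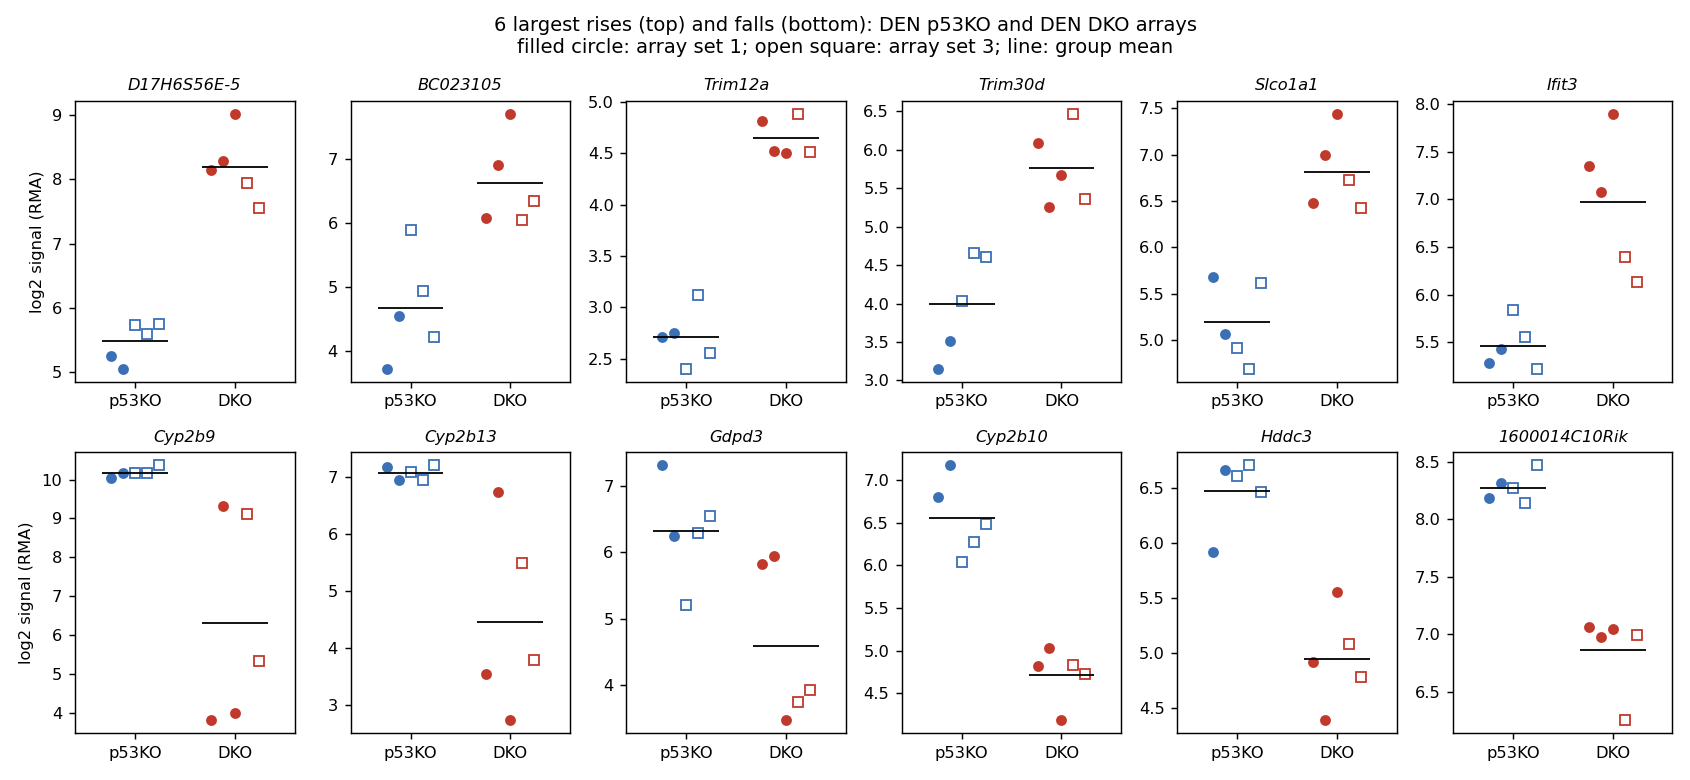
Log2 RMA signal (y axis) of the 6 called genes with the largest rise (top row) and the 6 with the largest fall (bottom row) in the DEN p53KO and DEN DKO arrays, circles for set 1, squares for set 3 and a line for the group mean. Arrays of the groups do not overlap in 11 of the 12 panels, and Gdpd3 is the exception.

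Several of the largest rises were in genes known to respond to interferon. The largest of all, D17H6S56E-5, a gene whose role is not described here, read 8.15, 8.29, 9.01, 7.94 and 7.54 in DKO and 5.26, 5.06, 5.74, 5.59 and 5.75 in p53KO, a difference of 2.69 (SE 0.55, adjusted p = 0.0108 with limma) or 6.44-fold. Every DKO array exceeded every p53KO array. Untreated DKO arrays ran from 5.49 to 7.87 and DEN WT arrays from 4.76 to 8.39, so the gene varied widely within other groups too.

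Ifit3, an interferon-induced antiviral protein, read 7.35, 7.07, 7.90, 6.39 and 6.14 in DKO and 5.28, 5.42, 5.84, 5.55 and 5.22 in p53KO. The 3 high DKO arrays are those of set 1, and the difference of 1.41 (SE 0.29, adjusted p = 0.0113 with limma) was 2.09 in set 1 and 0.73 in set 3. That set difference was called (adjusted p = 0.0355 with limma), and without p53KO replicate 1 the genotype call of Ifit3 ended (0.0578). Ifi203, a nucleic acid sensor of the HIN-200 family, was at 7.12 to 7.67 in DKO and 5.78 to 6.93 in p53KO, a difference of 1.07 that also ended without p53KO replicate 1 (0.0521).

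Trim30d and Trim30a belong to a TRIM cluster of interferon-responsive genes on chromosome 7. Trim30d read 6.08, 5.26, 5.67, 6.47 and 5.36 in DKO and 3.15, 3.51, 4.04, 4.66 and 4.60 in p53KO, a difference of 1.91 (SE 0.29, adjusted p = 0.00122 with limma). Trim30a rose by 1.101, at 6.37 to 7.09 against 5.05 to 6.41, with a small overlap. Trim12a of the same cluster read 4.81, 4.52, 4.503, 4.88 and 4.51 in DKO and 2.72, 2.75, 2.40, 3.12 and 2.56 in p53KO, a difference of 1.94 (SE 0.27, adjusted p = 0.000316 with limma). Its mean over all arrays of 3.37 was barely above the filter on dim genes (3.33), which it passed through the arrays where it is high, and its p53KO mean of 2.71 lies below that filter. In a fit of all genes with no filter the adjusted p was 0.000358 with limma, and the size of the difference is uncertain at such a low signal. Trim12a fell into separate levels across the series: untreated DKO arrays were at 3.98 to 4.68, untreated WT at 2.67 to 2.98, and 1 DEN WT array was at 4.66 while the other DEN WT arrays lay at 2.54 to 2.68. These TRIM genes resemble each other in sequence, and their signals may not be separate.

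The promoters of 3 of these risers are shown because they hold the letters of an interferon-stimulated response element, here GAAA repeated after a gap of 2 bases, on either strand. They are the 250 bases before the RefSeq start on GRCm38.p6, 5′ to 3′ on the gene's strand, with matches in capitals, for Ifit3 (chr19:34583279-34583528, plus strand), Trim30d (chr7:104507850-104508099, minus strand) and Ifi203 (chr1:173942493-173942742, minus strand).
Ifit3: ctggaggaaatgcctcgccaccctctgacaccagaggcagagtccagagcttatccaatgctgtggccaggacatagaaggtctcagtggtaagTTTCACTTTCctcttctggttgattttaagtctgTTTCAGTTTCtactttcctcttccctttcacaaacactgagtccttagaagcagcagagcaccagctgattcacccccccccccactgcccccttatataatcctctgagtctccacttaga
Trim30d: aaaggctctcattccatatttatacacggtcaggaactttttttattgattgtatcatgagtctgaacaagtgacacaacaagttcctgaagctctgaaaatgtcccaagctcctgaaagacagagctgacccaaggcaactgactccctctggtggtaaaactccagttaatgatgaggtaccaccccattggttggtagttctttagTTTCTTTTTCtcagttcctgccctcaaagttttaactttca
Ifi203: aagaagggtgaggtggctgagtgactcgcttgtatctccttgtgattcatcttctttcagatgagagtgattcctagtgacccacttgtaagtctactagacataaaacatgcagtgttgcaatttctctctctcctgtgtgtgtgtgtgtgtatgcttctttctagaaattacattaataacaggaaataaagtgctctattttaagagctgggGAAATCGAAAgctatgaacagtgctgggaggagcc
Of 12588 tested genes with a promoter in the table, 400 (3.18%) held these letters. Of the 12 largest rises 8 had a promoter there and 5 held the letters, D17H6S56E-5 and Trim30a beside the 3 shown. Of the 12 largest falls 11 had a promoter and 1 held them, Commd6. Among all called genes the shares were 8 of 39 higher (20.5%) and 9 of 198 lower (4.55%). A gene was counted where any of its entries matched, and Ifi203 and Trim30a each also have an entry without a match. Trim12a has an entry without a match, and in D17H6S56E-5 the match overlaps one of the E2F letters. These are descriptions of letters, and no binding was measured.

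The list of interferon-stimulated genes as a whole moved less than its leader. Of 22 tested genes 1 was called (1.87% of all genes were), Ifit3, while 20 were above 0, with a median of 0.26 against -0.04 over all genes. In set 1 the median was 0.47 and in set 3 it was 0.06. Ifit2 differed by 0.65 (adjusted p = 0.068), Oasl2, a 2′-5′ oligoadenylate synthetase-like gene, by 0.70 (0.108) and the GTPase gene Gbp3 by 0.57 (0.075), all with limma. Gbp3 was 1.17 in set 1 and -0.02 in set 3. MHC class I genes gave 0 calls among 15 (median 0.18, with 0.38 in set 1 and -0.01 in set 3), though H2-Bl, a class I gene outside that list, rose by 1.19 with all DKO arrays (5.18 to 5.94) above all p53KO arrays (4.07 to 4.70). Class I genes are near copies, so its signal is uncertain.

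Of the remaining rises, Slco1a1, an organic anion uptake transporter of the hepatocyte that is higher in male liver, read 6.48, 7.00, 7.44, 6.72 and 6.42 in DKO and 5.68, 5.07, 4.92, 4.69 and 5.61 in p53KO. Its groups did not overlap and the sets were alike, with 1.596 in set 1 and 1.497 in set 3 (difference 1.55, SE 0.28, adjusted p = 0.00488 with limma). Untreated WT arrays were at 6.81 to 8.21, DEN WT at 6.26 to 7.55 and DEN RbKO at 6.38 to 7.73, while untreated DKO arrays, at 5.50 to 5.92, overlapped the p53KO arrays and lay below all DEN DKO arrays. It was the 1 call among 21 genes of bile acid synthesis and transport, whose median was -0.05, beside 1.87% of all genes called. B4galnt1, a ganglioside synthase, was at 4.59 to 5.39 in DKO and 3.90 to 4.29 in p53KO (difference 1.11, SE 0.17, adjusted p = 0.00148 with limma).

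BC023105, a gene with no described role here, read 6.09, 6.91, 7.70, 6.05 and 6.35 in DKO and 3.73, 4.55, 5.89, 4.95 and 4.23 in p53KO, a difference of 1.97 (SE 0.51, adjusted p = 0.0402 with limma). Hmgb1, the chromatin protein released by damaged cells, rose by 1.32, at 6.59 to 7.78 against 4.65 to 6.51, and has many processed copies in the genome that can share probes. Ttc30b, a gene of intraflagellar transport, rose by 1.05 with overlap. All 3 calls were fragile: leaving out single arrays ended that of BC023105 for p53KO replicates 1, 2, 4 and 5 and DKO replicates 2, 3 and 5 (adjusted p up to 0.140), that of Hmgb1 for p53KO replicates 1 and 5 and DKO replicates 3, 4 and 5 (up to 0.102), and that of Ttc30b for every array but p53KO replicate 3 (up to 0.162).

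Lipid genes were lower where they were called. Of 19 genes of fatty acid oxidation and ketogenesis 4 fell (1.51% of all genes did), with a list median of -0.26. This list too was chosen with earlier results of these data known, and its share was not tested. Slc25a20, which carries acylcarnitines into mitochondria, read 6.23, 6.34, 6.46, 5.88 and 6.05 in DKO and 7.02, 6.98, 6.88, 6.86 and 6.70 in p53KO, a difference of -0.75 (SE 0.09, adjusted p = 0.000102 with limma). Its groups did not overlap, and the untreated and DEN WT arrays (6.51 to 7.11) overlapped those of p53KO. Pdk4, which blocks pyruvate entry into the citric acid cycle, differed by -0.66, the lipid droplet protein Plin2 by -0.51 and the lipase inhibitor Angptl4 by -0.45.

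The calls of Pdk4, Plin2 and Angptl4 ended when single arrays were left out, with adjusted p up to 0.116, 0.114 and 0.156 respectively, each without DKO replicate 5. For Plin2 this also held for p53KO replicates 3 and 4 and DKO replicate 4, for Pdk4 for every array but DKO replicate 3, and for Angptl4 for every array but DKO replicate 3 and p53KO replicate 5. The list median was 0.12 in set 1 and -0.57 in set 3, so only set 3 carried the list's fall. Cholesterol synthesis had 2 falls among 17 (1.51% of all genes fell) with a median of -0.10. Squalene epoxidase (Sqle) read 3.75 to 4.30 in DKO and 4.24 to 5.33 in p53KO (difference -0.84, SE 0.16, adjusted p = 0.00812 with limma), and the sterol gene Hsd17b7 differed by -0.54, a call that ended without p53KO replicate 1 or 2 (up to 0.0727). Lipogenesis genes gave 0 calls among 19, although Thrsp, a lipogenic regulator, had a wide difference of -1.25 (adjusted p = 0.19) and stood at 6.31 ± 1.13 in p53KO (SD, n = 5).

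Other liver programmes gave no call. These were acute phase (0 of 24, median -0.02), inflammatory cytokines and innate sensing (0 of 26, 0.11), complement and coagulation (0 of 28, 0.02), gluconeogenesis, amino acid and urea (0 of 19, -0.22), fetal liver and imprinted growth (0 of 13, -0.09), growth hormone, IGF and insulin (0 of 17, 0.13), ATF4 and unfolded protein response (0 of 21, -0.02), circadian clock (0 of 17, -0.09) and pericentral and Wnt genes (0 of 17, -0.12). Single members came close: the chaperone cofactor Sdf2l1 differed by 0.51 (adjusted p = 0.052), and Asl, of the urea cycle, by -0.72 (0.092), both with limma. Saa3, an acute phase gene, differed by 0.79 but by 0.12 in set 1 and 1.45 in set 3. A call missed at this number of arrays does not show that levels were equal: in data simulated for this comparison 48% of changes of 0.5 log2 and 98% of changes of 1 log2 were called. The simulated noise was independent between genes and each change was the same in both sets. In the real arrays the set difference was called for 493 genes, so the simulated setting was cleaner.

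Markers of other liver cells gave no call either, among 12 for Kupffer cells and macrophages, 11 for neutrophils and myeloid precursors, 12 for lymphocytes, 8 erythroid, 5 megakaryocyte, 18 endothelial, 18 stellate and 8 cholangiocyte genes. In bulk tissue fewer cells of a type and less RNA per cell cannot be told apart. The macrophage markers had a median of 0.49 in set 1 and -0.24 in set 3. Their mean level was 5.84 to 6.24 in DKO and 5.58 to 6.20 in p53KO arrays. Most lists were higher in set 1, the interferon and MHC class I lists among them. So were neutrophil (0.39 and -0.37), complement (0.26 and -0.21) and hepatocyte genes (0.05 and -0.13). A few lists went the other way, such as p53 targets (-0.22 and 0.004). The shift between sets is therefore not particular to macrophage or interferon genes. Cd5l and Marco, both macrophage genes, differed by 0.62 and 0.61 (adjusted p = 0.071 and 0.130 with limma). Lymphocyte markers were at 3.93 to 4.28 in DKO and 3.96 to 4.16 in p53KO. The part of these cells in the interferon-linked rises was not tested.

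**Figure D4:**
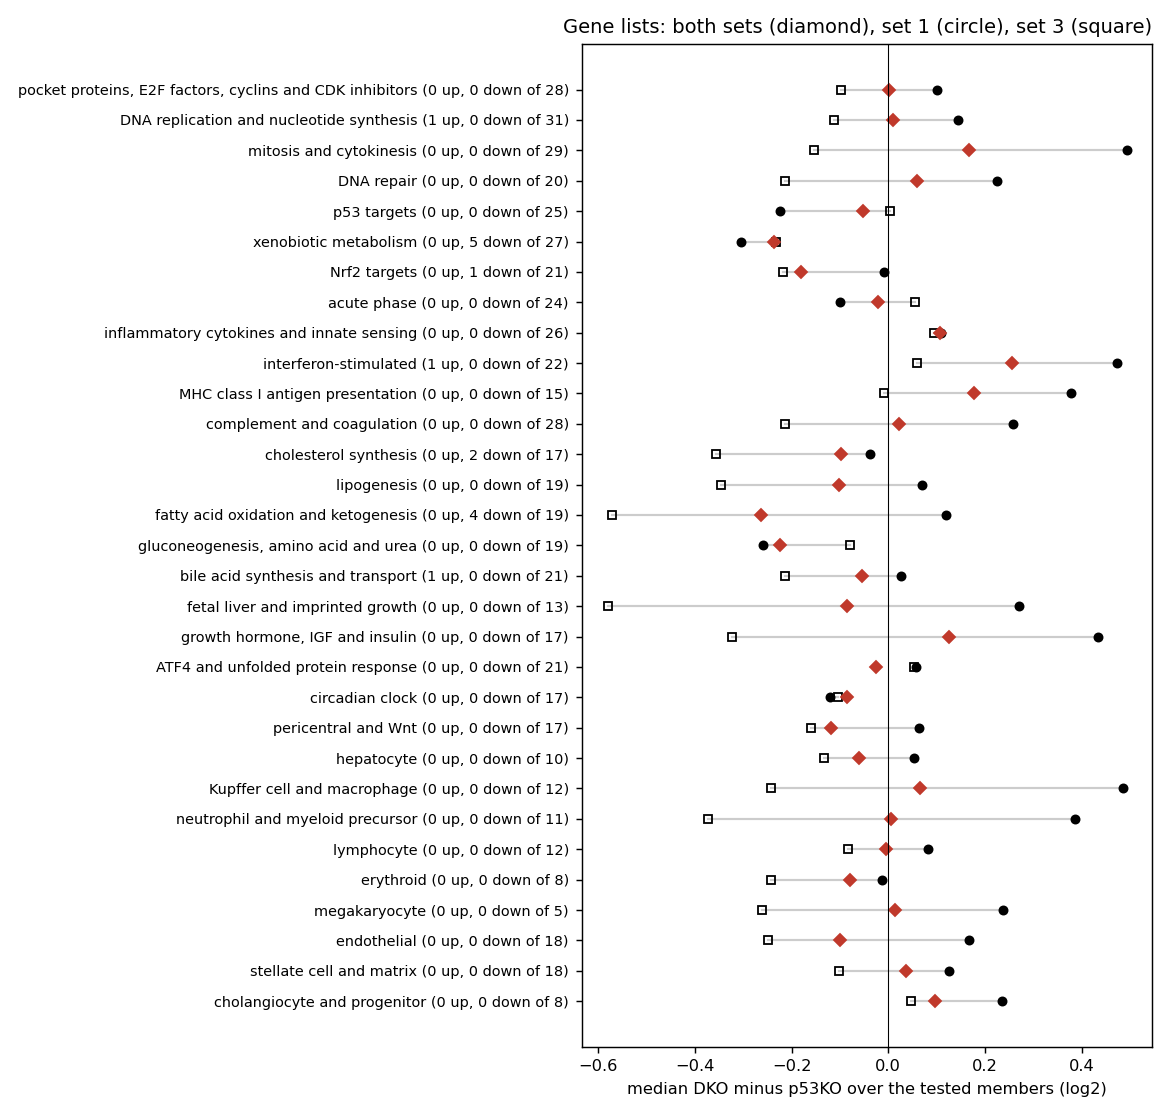
Median difference DKO minus p53KO (x axis, log2) over the tested members of each gene list (y axis, with the numbers called up and down), as a diamond for both sets, a circle for set 1 and a square for set 3. Xenobiotic metabolism lies below 0 in both sets (-0.30 and -0.23), whereas fatty acid oxidation, mitosis and macrophage markers lie on opposite sides of 0 in the 2 sets.

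The same deletion was also measured in livers with p53. RbKO against WT after DEN called 1811 genes (11.4%), 834 higher (5.23%) and 977 lower (6.13%), though the number was 279 without RbKO replicate 4, and 1084 and 975 without DEN WT replicates 4 and 5, the arrays of set 2. Of the 298 genes here 65 were among them, which is 21.8% of the 298 and 3.59% of the 1811, and 59 of those had the same sign. Regardless of calls 224 of the 298 (75.2%) had the same sign in both, against 55% of all genes tested. Pola1 rose in both (0.98 with p53, adjusted p = 0.00131 with limma), and Nr1i3 fell in both (-0.79, adjusted p = 0.0304). Xist was not balanced between RbKO and WT, at 6.62 ± 3.86 in DEN RbKO (SD, n = 4) and 3.63 ± 0.235 in DEN WT (SD, n = 5). The fit with Xist as a covariate was made only for DKO against p53KO. The part of sex in the RbKO against WT calls, and in the effect differences below, was not tested.

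Cell cycle genes had more calls with p53 present, and so did all genes, with 5.23% called higher beside 0.357% with p53 deleted. The counts depend on the arrays of set 2. With p53 present, mitosis genes had a median of 1.02 with 21 of 29 called higher, replication genes 0.35 with 10 of 31 and the pocket protein and cyclin list 0.17 with 7 of 28 higher and 1 lower, beside the 0, 1 and 0 calls with p53 deleted. Without RbKO replicate 4, the RbKO array of set 2, those higher with p53 present were 3, 3 and 2. Within set 1, which holds all 4 DEN groups, mitosis genes had a median of 0.46 with p53 and 0.49 without, with 8 and 6 called higher, and replication genes 0.30 and 0.14, with 4 and 3. Over all genes set 1 alone called 532 with p53 present and 777 with p53 deleted, in either direction. Both alternatives were chosen after seeing the data. Ccne2 was 1.32 higher in RbKO than in WT (adjusted p = 0.001) and 0.02 higher in DKO than in p53KO, and Rbl1 1.05 and 0.13. In set 1 these were 0.79 and 0.02 for Ccne2 and 0.70 and 0.57 for Rbl1. The difference between these effects was not called for Ccne2 (adjusted p = 0.053) nor for Rbl1 (0.094), both with limma. It was called for 0 of the 29 mitosis genes, 2 of the 31 replication genes and 0 of the 28 of the cyclin list, beside 0.426% of all genes.

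The effect of Rb deletion itself differed with p53 in 68 genes (0.426%), 16 more positive (0.1%) and 52 more negative (0.326%) with p53 deleted. Of the 68, 20 are among the 298 and the other 48 were called in RbKO against WT only. The count ran from 6, without RbKO replicate 4 or without DEN WT replicate 4, to 303, without DKO replicate 4. Snx7, a sorting nexin of endosomes, had the lowest p. It read 7.35, 7.22, 6.76, 7.03 and 6.53 in DEN WT and 7.53, 7.50, 8.04 and 7.54 in RbKO, against 7.72, 7.54, 7.78, 7.78 and 7.81 in p53KO and 7.03, 6.97, 7.11, 6.76 and 6.43 in DKO. So it was higher with Rb deleted where p53 was present (0.62) and lower where p53 was deleted (-0.90), an effect difference of -1.52 (SE 0.21, adjusted p = 0.00230 with limma).

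Ltn1, the ubiquitin ligase of stalled ribosomes, had an effect difference of -1.23 (adjusted p = 0.0126), Pus3, a tRNA pseudouridine synthase, of -1.24 (0.0126) and Rpp30, a subunit of RNase P, of -1.12 (0.0214), each with a rise in RbKO and a fall in DKO. B4galnt1 went the other way, at -0.53 in RbKO against WT and 1.11 in DKO against p53KO, an effect difference of 1.64 (adjusted p = 0.00535). Trim12a had 2.16 (0.0214, and 0.0248 with no filter on dim genes). These values are from limma. Those of Snx7, Ltn1 and B4galnt1 were called without each of the 19 arrays in turn, while the calls of Pus3, Rpp30 and Trim12a ended without RbKO replicate 4, an array of set 2 (adjusted p = 0.0503, 0.118 and 0.0672).

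**Figure D5:**
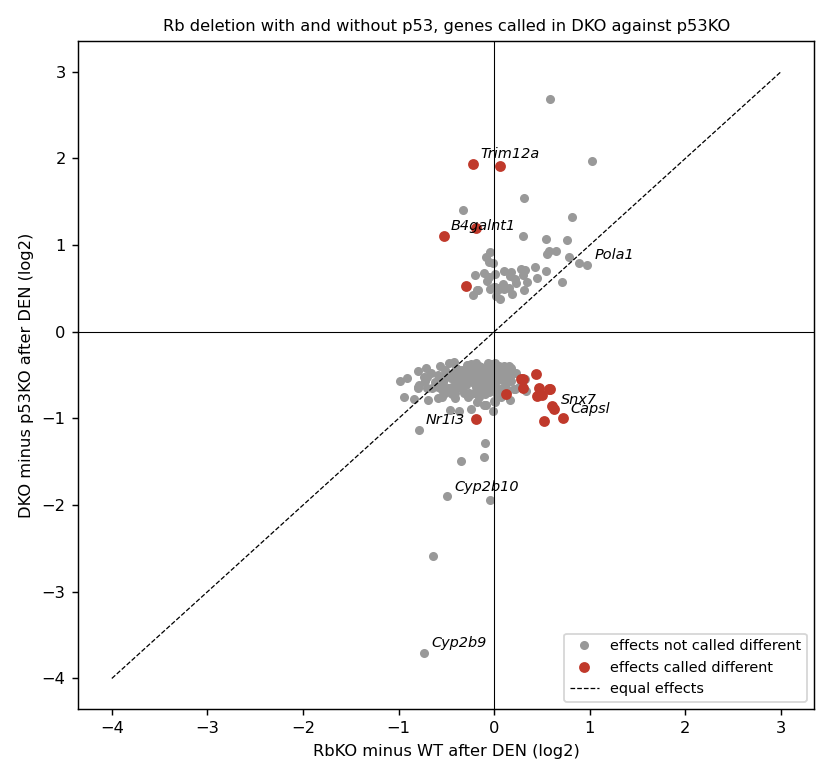
Effect of Rb deletion after DEN with p53 present (RbKO minus WT, x axis, log2) against that with p53 deleted (DKO minus p53KO, y axis, log2) for the 298 called genes. The 20 genes whose effects were called different are in red and lie away from the dashed line of equal effects, among them Snx7 (0.62 and -0.90) and Trim12a (-0.22 and 1.94).

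The position of the genes was also described, since the mice are of mixed strain. Of the 24 largest rises and falls 9 lie on chromosome 7, which holds 1318 of the 15951 genes tested. The 9 include all of the first 6 falls, among them the Cyp2b cluster, and the 3 TRIM genes. Chromosome 7 as a whole had 27 of 1318 genes called (2.05%, against 1.87% of all genes). Of 100 genes tested beside Rb1 on chromosome 14, 50 on each side, 1 was called. It was Wbp4, a splicing factor gene, at -0.46 (adjusted p = 0.0201 with limma), and the call ended without DKO replicate 5 (0.126). Commd6, among the largest falls, also lies on chromosome 14 but outside these 100 genes. Strain background cannot be told from genotype by these labels, and its part in any difference was not tested.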

How the data were processed

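Total RNA of frozen liver was amplified (WT-Ovation Pico), labelled with biotin and hybridized to 1-colour arrays, per the labels' protocols. The authors deposited log2 signals from RMA, run in Affymetrix Expression Console 1.1 per the submitters' processing notes. RMA forces the arrays to a common distribution, so a global shift of expression would not appear. Genome build, and whether all arrays were normalized in 1 run, are not given in the sources used here. The labels' p53 and Rb status gave the groups and the numbering in the array names the 3 sets, whose meaning is not given.

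Of 35555 probe sets on 25 arrays, 21789 had 1 gene symbol, 1620 several and 12146 none in the probe table supplied; the last 2 kinds were left out. The probe set with the highest mean was kept for each of 19938 genes, 3987 genes under the 20th percentile (3.33 log2) were left out, and 15951 were tested. A model of group means and set used all 25 arrays (limma 3.58.1, statmod 1.5.0, R 4.3.3), with two-sided tests, Benjamini-Hochberg adjustment and a threshold of 0.05. The calculation was tested on simulated data. Symbols of 91 genes were not in the RefSeq table and were kept as given. p53's own gene is not analysed here.

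Named were Rb1, the 12 largest rises and falls with 1 sign in both sets, up to 4 members of each of 32 lists by p, members of the pocket protein list, the 6 lowest p-values for the effect difference and called neighbours of Rb1. The members and lists were chosen with earlier results of these data known. Alternatives were a fit that ignores the set, the set as random, each set alone, only the 10 arrays, no set 2, other filters, probe set rules and scalings, array weights, eBayes trend and robust, an Xist covariate and each array left out. Promoters are from RefSeq (GRCm38.p6).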

Additional observations from a re-analysis of the deposited data

Results flagged for a closer look

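Among the 39 genes named for a call or for Rb1, 4 of 78 groups of 5 arrays (5.13%) held an array far from the others by Dixon's test, and chance gives about 1 in 20. All were DKO arrays. B4galnt1 was 4.588 in replicate 4 against 5.182 to 5.388 in the others, 1600014C10Rik was 6.251 in replicate 4 against 6.979 to 7.066, Sqle was 4.301 in replicate 4 against 3.754 to 3.833, and Parl was 8.019 in replicate 2 against 8.236 to 8.315. For B4galnt1 and Sqle the array lies toward the p53KO level, and for 1600014C10Rik and Parl away from it.

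In 13 named genes the effect of Rb deletion differed with p53 by the test of the difference itself, with limma. The effect was more positive with p53 deleted for Trim12a (2.16, adjusted p = 0.0214), Trim30d (1.85, 0.0473), B4galnt1 (1.636, 0.00535) and H2-Bl (1.389, 0.0470). It was more negative for Capsl (-1.715, 0.0342), Gipc2 (-1.555, 0.0366), Snx7 (-1.52, 0.00230), Pus3 (-1.237, 0.0126), Pdk4 (-1.235, 0.0342), Ltn1 (-1.231, 0.0126), Cyp2c55 (-1.192, 0.0342), Rpp30 (-1.117, 0.0214) and Tm4sf4 (-0.8091, 0.0432). Leaving out each of 19 arrays in turn kept the calls of Snx7, B4galnt1 and Ltn1, ended those of Trim12a, Pus3 and Rpp30 for RbKO replicate 4 alone (adjusted p = 0.0672, 0.0503 and 0.118), and ended the other 7 for 6 to 15 arrays. Of these 7 the adjusted p reached 0.166 for Trim30d and Tm4sf4, 0.157 for H2-Bl and Cyp2c55, 0.158 for Capsl and 0.133 for Pdk4, each without RbKO replicate 4, and 0.0726 for Gipc2 without p53KO replicate 2. Without set 2 the calls of Snx7, B4galnt1, Ltn1 and Gipc2 remained (adjusted p = 0.0116, 0.0276, 0.0276 and 0.0319), and with no set term only that of Snx7 did (0.0153).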

How the results depend on the processing

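None of the 39 named genes changed direction in 1123 alternative values, of which 173 lost the call. These values pool the genotype difference with the effect difference of the genes named for it. All but Rb1 were named from called genes, and every called gene had the same sign in set 1 and set 3. The constant direction was therefore largely fixed by how the genes were chosen. D17H6S56E-5, Slco1a1, H2-Bl, Cyp2b10, Hddc3, Nr1i3, Slc25a20, Alg8 and Atp6v1b2 were called under all 15 other settings and without each of the 10 arrays. Trim12a was also called wherever tested, but is too dim for the 40th percentile filter. The 298 calls became 27 with no set term, 135 with the set as a random block, 777 in set 1, 130 in set 3, 168 with only the 10 arrays, 689 without set 2 and 188 with quantile normalization again, and 142 to 267 without single arrays. The 1811 calls of RbKO against WT became 390 with no set term, 532 in set 1 and 193 without set 2, and 279 to 1970 without single arrays. The 68 effect differences became 1 with no set term, 210 in set 1, 5 without set 2 and 45 with centred arrays, and 6 to 303 without single arrays. The 493 set differences became 926 with all 25 arrays in the fit and 87 to 506 without single arrays, alternatives chosen after seeing the data. The 1 call among the neighbours of Rb1 became 0 with no set term, a random block, only the 10 arrays or quantile normalization again, 6 in set 1, 2 without set 2, with the 40th percentile filter, the mean of probe sets or centred arrays, and 1 to 3 without single arrays. Fewer arrays are in several of these fits, and otherwise the cause was not tested. No paired analysis was possible because the numbers in the titles name arrays and pair none of them across the groups.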

Other observations

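Genes of protein turnover were frequent among the falls. The families in this paragraph were taken by gene symbol after the values were seen, so no test was made. Of 39 tested genes for proteasome subunits 10 were called lower in DKO (25.6%, against 1.51% of all genes) and none higher, 35 were below 0, and their median was -0.29, with -0.34 in set 1 and -0.26 in set 3. The regulatory subunit Psmd8 stood at 7.29 ± 0.29 in DKO and 7.92 ± 0.08 in p53KO (SD, n = 5 each), a difference of -0.66 (SE 0.13, adjusted p = 0.00918 with limma), and the ATPase subunit Psmc4 differed by -0.58 (adjusted p = 0.0186). The count was 3 after quantile normalization again, 12 with centred arrays and 1 without DKO replicate 5, with medians of -0.22 and -0.31 under these scalings. Of 21 genes of the proton pump V-ATPase, which acidifies lysosomes, 4 were lower (19%) with a median of -0.27, among them Atp6v0d1 at -0.75 and Atp6v1b2 at -0.66 (adjusted p = 0.00240 and 0.00245). Of 11 subunits of translation initiation factor eIF3, 5 were lower (45.5%), for example Eif3m at -0.54 (adjusted p = 0.0149). In the same fit 1 of 65 cytosolic ribosomal protein genes, 1 of 77 mitochondrial ribosomal protein genes and 1 of 43 complex I genes were lower. Without single arrays the V-ATPase count was 2 to 3 and the eIF3 count 2 to 5, each lowest without p53KO replicate 1. With p53 present, RbKO against WT had 8 proteasome, 5 V-ATPase and 4 eIF3 genes lower, with medians of -0.15, -0.15 and -0.30. There 14 cytosolic ribosomal, 19 mitochondrial ribosomal and 16 complex I genes were lower too, beside 6.13% of all genes.

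A few genes outside the lists that were called higher in DKO were also picked out after their values were seen, and the marker lists had no call (0 of 12 macrophage, 0 of 11 neutrophil and 0 of 12 lymphocyte genes). Ptprc, the pan-leukocyte phosphatase CD45, differed by 0.62 (adjusted p = 0.0294 with limma), with 1.01 in set 1 and 0.22 in set 3. Cd180, of B cells and macrophages, differed by 0.64, with 0.995 and 0.29, and the nucleic acid sensors Zbp1 and Ddx60 by 0.66 and 0.71, with 1.05 and 1.195 in set 1 and 0.26 and 0.22 in set 3. Ly9, a lymphocyte surface receptor, and Ifi206, of the HIN-200 family, were alike in the sets, at 0.69 and 0.58 for Ly9 and 0.72 and 0.86 for Ifi206.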
